A study of Mus musculus with 2 samples.

Results

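The cells described here are monocyte-type cells of injured mouse muscle that carried at least 5 UMIs (unique molecules) of Spp1 and Arg1 in sum, 56 of the 13047 cells kept. Kept cells had at least 200 genes and 500 UMIs and at most 20% mitochondrial UMIs. A monocyte gate then asked for a UMI of at least 3 of 8 genes (Ccr2, Ly6c2, Plac8, Chil3, Ms4a6c, Ms4a4c, F13a1 and Csf1r), at most 2 UMIs of C1qa, C1qb and C1qc together and at most 2 of Hdc and Il1r2 together. It also asked for no UMI of Flt3, Pdgfra or Cdh5 and for fewer than 2 of the lymphocyte genes Cd3e, Cd3d, Cd79a and Nkg7. The cells were thus chosen by their measured Spp1 and Arg1 UMIs. Gated cells that passed this threshold are called Spp1/Arg1-high cells, and gated cells under it are called the other gated cells. The cells came from quadriceps of wild-type C57 BL/6J mice that had received 100 µl of 1.2% (w/v) barium chloride, a salt that kills muscle fibres. Mononuclear cells were taken 2 h or 9 h after the injection, frozen, thawed and run as a droplet 3′ library, 1 for each time, loaded for 5000 cells. There was no uninjured library, and no difference could be checked against replicates or tested. Time and library cannot be told apart.

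Spp1 encodes osteopontin, a secreted phosphoprotein that binds integrins and CD44 and is made by macrophages in wounds, scars and regenerating muscle. Arg1 encodes arginase 1, which turns arginine into ornithine and urea and is a much used marker of macrophages in repair. Monocytes that enter injured tissue lose monocyte genes and gain macrophage genes over the first days, and osteopontin and arginase are among the genes that mark cells on that path.

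All values that follow are descriptions. Spp1, Arg1 and the gate genes chose the cells, and every other gene was read in the same cells. Levels are in CPM, a gene's UMIs summed over a group, with all UMIs of that group scaled to 1000000. Intervals are exact, at 95%, cover counting error only and take UMIs as independent, and understate the error of genes whose UMIs sit in a handful of cells. The libraries shared 12 barcodes among their kept cells, of which 1 belonged to a Spp1/Arg1-high cell at 9 h. Leaving the shared barcodes out moved no count of genes by more than 1.5 times.

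Spp1 lies on chromosome 5 at chr5:104435118-104441050 (plus strand, mm10) and Arg1 on chromosome 10 at chr10:24915221-24927484 (minus strand). The 250 bases upstream of the RefSeq start (GRCm38.p6) are shown for Spp1, which chose most of the cells, and for the clustered neutrophil-attracting chemokine genes Cxcl1, Cxcl2 and Cxcl3, which were among the genes further apart between the groups. These genes and the second motif searched, the NF-kB-type motif (GGG, then 2 bases of any kind, then TTTCC), were picked after the values had been seen. All are on the plus strand, at chr5:104434861-104435110 for Spp1, chr5:90890995-90891244 for Cxcl1, chr5:90903649-90903898 for Cxcl2 and chr5:90785851-90786100 for Cxcl3. Capitals mark the NF-kB-type motif or ACGTG, the core that hypoxia-inducible factors bind, on either strand.
Spp1: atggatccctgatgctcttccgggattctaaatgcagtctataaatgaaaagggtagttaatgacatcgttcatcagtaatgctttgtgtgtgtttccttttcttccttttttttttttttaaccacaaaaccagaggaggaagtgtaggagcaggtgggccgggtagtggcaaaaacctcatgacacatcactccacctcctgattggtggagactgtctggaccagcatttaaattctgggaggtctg
Cxcl1: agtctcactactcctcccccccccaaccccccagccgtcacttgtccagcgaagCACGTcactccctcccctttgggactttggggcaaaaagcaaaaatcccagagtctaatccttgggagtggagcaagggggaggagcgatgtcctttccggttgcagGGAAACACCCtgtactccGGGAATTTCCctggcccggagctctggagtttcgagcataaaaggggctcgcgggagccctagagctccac
Cxcl2: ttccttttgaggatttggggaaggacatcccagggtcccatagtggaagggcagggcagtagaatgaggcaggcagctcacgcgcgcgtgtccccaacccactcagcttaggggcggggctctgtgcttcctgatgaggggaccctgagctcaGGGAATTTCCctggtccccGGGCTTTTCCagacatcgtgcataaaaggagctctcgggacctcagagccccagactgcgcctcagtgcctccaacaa
Cxcl3: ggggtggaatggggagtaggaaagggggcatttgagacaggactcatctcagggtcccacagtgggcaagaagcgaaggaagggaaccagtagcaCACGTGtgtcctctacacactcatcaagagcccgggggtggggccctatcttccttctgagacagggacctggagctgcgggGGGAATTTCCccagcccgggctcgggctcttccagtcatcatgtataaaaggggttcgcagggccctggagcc
The NF-kB-type motif began at -89 and -71 from the start in Cxcl1, at -97 and -78 in Cxcl2 and at -73 in Cxcl3, and neither motif was found in the Spp1 window. Among windows of the same length, with 1 start per gene, 1.35% of 20595 genes and 2.19% of the 1141 genes measured at 9 h that had a window held the NF-kB-type motif. It was present in 5 of the 19 inflammatory cytokine and chemokine genes with a window (Ccl9, Cxcl1, Cxcl2, Cxcl3 and Il6). ACGTG was present in 17.3% of all genes, 25.9% of measured genes, 8 of 18 glycolysis genes and 9 of 18 hypoxia response genes. Among the 15 highest named genes given below, it was present in 4 of the 14 with a window (28.6%). The windows of Vegfa and Hilpda, 2 hypoxia response genes of that set, held 0. A first search, for ACGTG alone, had taken any annotated start of a gene and gave 10 of 18 glycolysis genes, 14 of 19 hypoxia response genes, 18.5% of 27025 genes and 29.7% of 1145 measured genes. In that form the NF-kB-type motif was present in 6 of 19 inflammatory genes and in 1.65% of all genes, and ACGTG in 7 of 14 highest named genes. These matches are descriptions of letters.

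Spp1/Arg1-high cells were few at 2 h and were a larger share of the gated cells at 9 h. At 2 h they were 5 of 4900 kept cells (0.102%, 0.0331 to 0.238%) and 5 of 123 gated cells (4.07%, exact Clopper-Pearson interval 1.33 to 9.23%). At 9 h they were 51 of 8147 kept cells (0.626%, 0.466 to 0.822%) and 51 of 178 gated cells (28.7%, 22.1 to 35.9%). Median depth was 7977 UMIs per gated cell at 2 h and 5623 at 9 h, and its part in these shares was not tested.

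The earlier cells carried Spp1 alone. The 5 cells at 2 h held 6, 6, 7, 43 and 52 UMIs of Spp1, and each held 0 UMIs of Arg1, while the whole 2 h library held 37 UMIs of Arg1 in 4900 cells. At 9 h, Spp1 UMIs per cell ran from 0 to 242 with a median of 28, in 47 of 51 cells, and Arg1 ran from 0 to 49 with a median of 0, in 23 of 51 cells. The sum was spread unevenly, with a median of 36 and 33.9% of all UMIs in the 5 highest cells. Of the 51 cells, 37 had at least 5 UMIs of Spp1 only, 6 of Arg1 only and 8 of both. Across these chosen cells, which share 1 library, Spp1 and Arg1 were correlated at r = -0.46 and rho = -0.30 (n = 51), a description of cells that had to hold one or the other.

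At 9 h, 106 gated cells had no UMI of either gene, 8 had 1 UMI, 13 had 2 to 4, 6 had 5 to 8, 12 had 9 to 19 and 33 had 20 or more. At 2 h, 110 had no UMI, 6 had 1, 2 had 2 to 4, 3 had 5 to 8, 0 had 9 to 19 and 2 had 20 or more. Cells just inside the threshold (5 to 8 UMIs) and just outside it (2 to 4 UMIs) had median depths of 5064 and 5218 UMIs at 9 h, and of 9503 and 4393 UMIs at 2 h (3 and 2 cells).

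**Figure D1:**
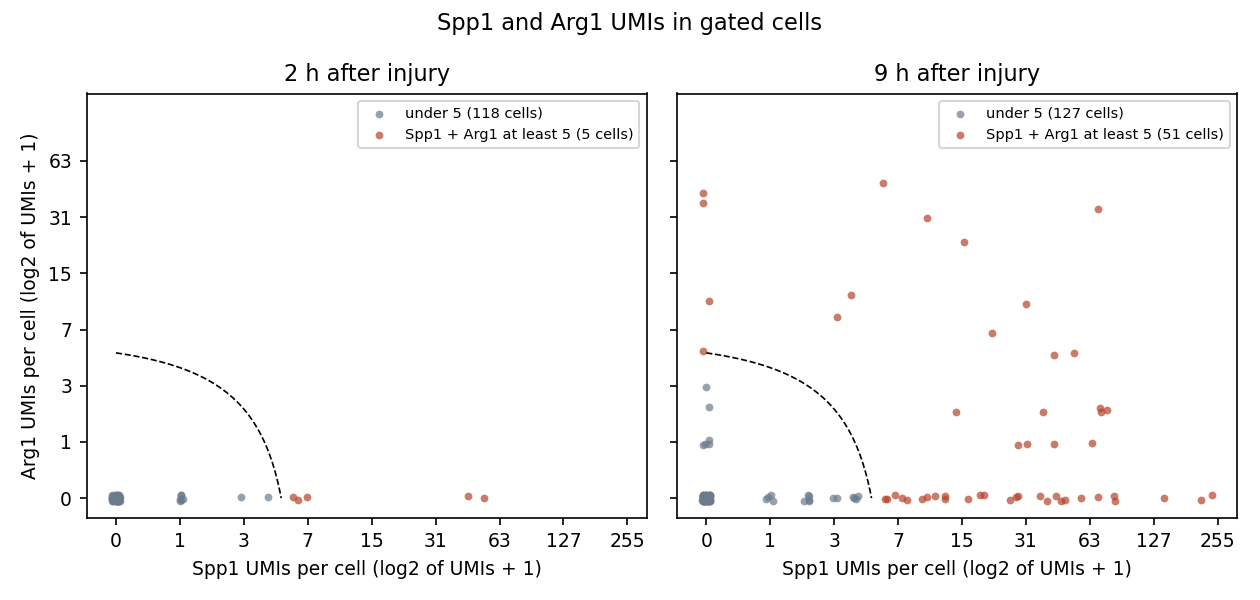
Spp1 UMIs (x) and Arg1 UMIs (y) of each gated cell at 2 h (left, 123 cells) and 9 h (right, 178 cells), on a log2 scale of UMIs + 1 with a small random shift of each point. The dashed line marks a sum of 5, red points are the Spp1/Arg1-high cells, and at 2 h none of the 5 carries Arg1.

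Most Spp1 of the muscle lay elsewhere, and Arg1 did not follow it. Cells with more than 2 UMIs of Hdc and Il1r2, genes used here to keep out neutrophils, held 80.9% of all Spp1 UMIs at 9 h and 79.2% at 2 h. Spp1/Arg1-high cells held 7.75% and 3.10%. Per UMI the order was the reverse at 9 h, with Spp1 at 6162 CPM (5897 to 6437) in Spp1/Arg1-high cells, as the choice of cells sets, against 2028 CPM (2001 to 2055) in the 4385 Hdc or Il1r2 cells. Spp1 stood at 148 CPM in macrophages carrying C1q, which are cells with at least 5 C1qa, C1qb and C1qc UMIs. Of the 1096 Arg1 UMIs at 9 h, 51.6% were in these 163 C1q macrophages, 26.2% in the Spp1/Arg1-high cells and 7.30% in the Hdc or Il1r2 cells. Arg1 was at 874 CPM (776 to 981) in Spp1/Arg1-high cells and 516 CPM (474 to 560) in C1q macrophages. Cells with Cdh5, an endothelial gene, were taken as a rough guide to free RNA, which was not measured itself. Of 373, 2.68% had a Spp1 UMI and 0.268% an Arg1 UMI at a median depth of 2261 UMIs. At least 5 Spp1 UMIs were found in 2 of them, and doublets were not removed. The shares in the Spp1/Arg1-high cells are set by the choice of cells and are not read against these.

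**Figure D2:**
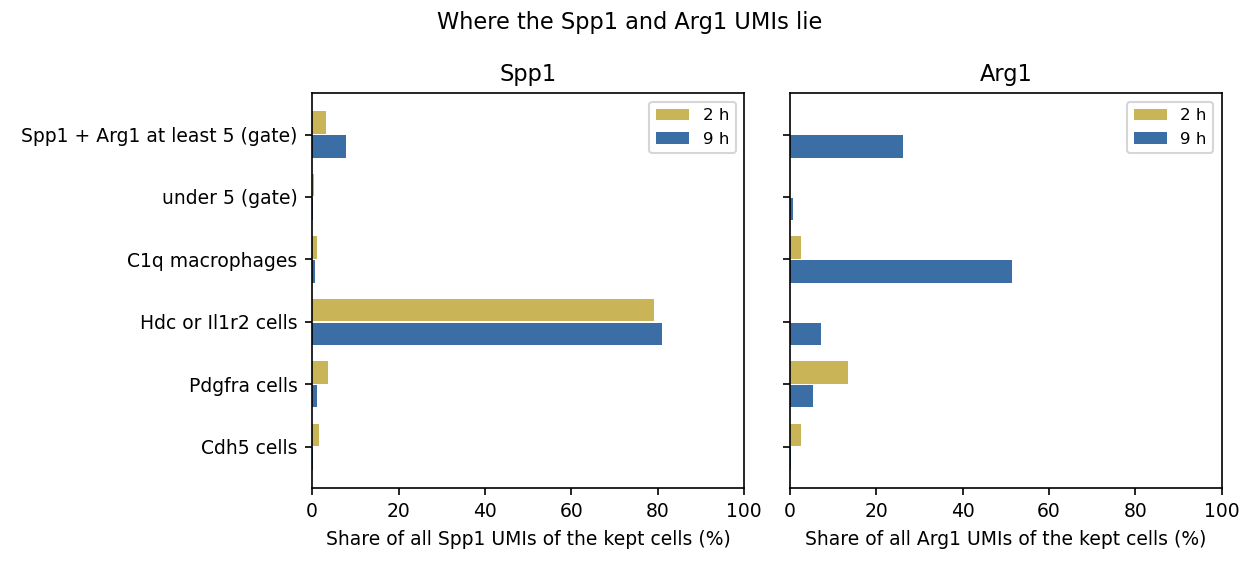
Share of all Spp1 (left) and Arg1 (right) UMIs of the kept cells that lies in each group at 2 h and 9 h, in percent. Hdc or Il1r2 cells hold 79.2% and 80.9% of Spp1, and C1q macrophages hold 51.6% of Arg1 at 9 h.

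The other marker genes set these cells apart unevenly. Thbs1, which encodes the matrix glycoprotein thrombospondin 1, was carried by 51 of 51 Spp1/Arg1-high cells at 9 h, with 3 to 233 UMIs and a median of 80. In the other gated cells it ran from 0 to 242 with a median of 39. The groups overlapped, and the summed levels were 12669 and 8707 CPM, a ratio of 1.46 (1.40 to 1.51). Inhba, which encodes the activin A subunit, was at 481 and 271 CPM (ratio 1.78, 1.43 to 2.21; log2 ratio 0.81, and 1.48 when 2 gate genes sufficed), and 1 cell held 28.5% of its UMIs in the higher group. Vcan, the proteoglycan versican, did not stand apart, at 1187 and 1151 CPM (ratio 1.03, 0.912 to 1.17). Against C1q macrophages, Thbs1 was 6.68 times as high (6.34 to 7.05) and Vcan 11.8 times as high (9.55 to 14.8).

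The label calls these cells early macrophages from monocytes. Origin was not measured. Of the 8 gate genes, which the cell choice used, 6 were lower in the Spp1/Arg1-high cells with an interval of the ratio below 1. They were not lower to a like degree in all of these cells. Chil3, Ly6c2 and Ms4a4c were at 2368, 197 and 239 CPM in the 37 cells with Spp1 only. In the 14 cells with at least 5 Arg1 UMIs they were at 680, 17.4 and 17.4 CPM. The other gated cells had 2149, 214 and 262 CPM. Ccr2, Plac8 and Ms4a6c were at 384, 576 and 730 CPM in the Spp1-only cells, against 648, 907 and 874 CPM in the other gated cells. Of 18 other monocyte genes 14 were measured, 7 lay above 0, 0 were at least 2-fold higher, 2 were lower and the median log2 ratio was 0.03, with 7 intervals of the ratio above 1 and 5 below. Over all 1440 measured genes that the cell choice did not use, 232 intervals lay above 1 and 319 below. Ccr2, the receptor that brings monocytes to tissue, was carried by 38 of 51 Spp1/Arg1-high cells at 362 CPM, against 648 CPM in the other gated cells (ratio 0.559). Plac8, a gene of classical monocytes, was at 432 and 907 CPM (ratio 0.477, 0.394 to 0.573). Lyz2, the lysozyme gene of myeloid cells, was at 4719 and 7961 CPM (ratio 0.593). Csf1r (143 and 149 CPM) and F13a1 (1038 and 920 CPM) had intervals of the ratio that included 1. Of the general macrophage list 12 genes were measured, 8 lay above 0, 1 (Ctsl) was at least 2-fold higher and the median log2 ratio was 0.32. Lyve1 and Folr2, genes of resident macrophages, had 0 UMIs in the Spp1/Arg1-high cells, where 209 and 151 CPM were found in C1q macrophages. Against the other gated cells only 2 genes of the 14 on the resident list were measured, and these pointed the other way. Both lay above 0, 1 (Pf4) was at least 2-fold higher and the median log2 ratio was 1.39.

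At 9 h few measured genes were 2-fold apart between the Spp1/Arg1-high and the other gated cells. Of 1440 genes with at least 100 UMIs over both groups, 27 (1.88%) were at least 2-fold higher and 34 (2.36%) at least 2-fold lower, on a log2 scale with 10 CPM added. The median log2 ratio over all of them was -0.04. The highest named genes were Ccl12, Vegfa, Cd36, Hilpda and Cxcl1. The lowest were Lsp1, Cst3, Slc20a1, Mbnl1 and Clec4a3. With a threshold of 3 UMIs the log2 ratio of Slc20a1 was -0.29 instead of -1.56.

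Chemokine and cytokine genes made up much of the higher side. Of 28 genes on the inflammatory list, 17 were measured, 17 of 17 had a log2 ratio above 0, 8 were at least 2-fold higher and the list median was 0.93. Cxcl3 ran from 0 to 171 UMIs per Spp1/Arg1-high cell with a median of 30, in 48 of 51 cells, and from 0 to 176 with a median of 1 in the other gated cells, in 67 of 127. The ranges overlapped fully while the medians lay far apart, and the summed levels were 6997 and 2133 CPM (ratio 3.28, 3.07 to 3.50). Cxcl2 was at 27990 and 14714 CPM (ratio 1.90, 1.85 to 1.96), with medians of 144 and 37 UMIs per cell. Cxcl1 was at 1069 and 278 CPM (ratio 3.84, 3.21 to 4.60), in 20 of 51 and 19 of 127 cells. All of them attract neutrophils through CXCR2, and the windows printed above belong to them.

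Chemokines that attract monocytes were higher too. Ccl12 was at 411 and 68.1 CPM (ratio 6.03, 4.30 to 8.60), in 21 of 51 and 12 of 127 cells. With cells chosen by Spp1 alone its log2 ratio was 1.70 instead of 2.43. Ccl2 was at 3243 and 1868 CPM (ratio 1.74), with medians of 12 and 1 UMI per cell. Ccl9 was at 3416 and 1543 CPM (ratio 2.21, 2.03 to 2.41). Of the interleukin 1 family, Il1a was at 228 and 73.9 CPM (ratio 3.09) and Il1rn, the receptor antagonist, at 819 and 304 CPM (ratio 2.69, 2.24 to 3.24; with Arg1 alone its log2 ratio was 0.75 instead of 1.40). Il1b itself was closer, at 2762 and 2078 CPM (ratio 1.33, 1.22 to 1.45), and with cells chosen by Arg1 alone its log2 ratio was -0.42 instead of 0.41. Ptgs2, the inducible cyclooxygenase, was at 1538 and 842 CPM (ratio 1.83; with Arg1 alone its log2 ratio was 0.10 instead of 0.86), and Tnf at 323 and 275 CPM had an interval that included 1 (0.915 to 1.49).

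Hypoxia and glucose genes formed the next group. Of 22 hypoxia response genes, 8 were measured, 8 of 8 had a log2 ratio above 0, 2 were at least 2-fold higher and the median was 0.62. Vegfa, the vascular growth factor, was at 496 and 94.2 CPM (ratio 5.27, 3.93 to 7.14), in 29 of 51 and 26 of 127 cells. Hilpda, a lipid droplet protein induced by low oxygen, was at 1114 and 278 CPM (interval of the ratio 3.35 to 4.79), in 35 of 51 and 47 of 127 cells. Hif1a, the oxygen-sensing factor, was at 1334 and 861 CPM (ratio 1.55). Of 19 glycolysis genes, 12 were measured, 11 lay above 0 and 1, the glucose transporter gene Slc2a1, was at least 2-fold higher (338 and 143 CPM, ratio 2.36, 1.78 to 3.12), and the median was 0.57. Pgk1 (530 and 338 CPM), Aldoa (435 and 267 CPM) and Ldha (542 and 355 CPM) had ratios of 1.57, 1.63 and 1.53.

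Cd36, Abca1 and 3 genes of the scar-associated macrophage list were higher than in the other gated cells. Cd36, a scavenger receptor for oxidised lipids, was at 627 and 141 CPM (ratio 4.46, 3.49 to 5.74), in 24 of 51 and 30 of 127 cells. With cells chosen by Spp1 alone its log2 ratio was 1.18 instead of 2.08, and it was 1.30 without cells of at least 10 MHC class II UMIs. Abca1, the cholesterol exporter, was at 350 and 94.2 CPM (ratio 3.72). Of 20 scar-associated macrophage genes, 16 were measured, 3 (Cd36, Ctsl and Lpl) were at least 2-fold higher and the median was 0.59. Against C1q macrophages 17 were measured, 3 (Fabp5, Cd9 and Vim) were at least 2-fold higher, 4 (Cd36, Lpl, Ctsb and Cd63) at least 2-fold lower and the median was -0.06. Cd9 was at 588 and 312 CPM (ratio 1.89), whereas Fabp5 stood at 1224 and 1225 CPM (interval of the ratio 0.885 to 1.13). Ctsl, a lysosomal protease gene, was at 1906 and 922 CPM (ratio 2.07, 1.85 to 2.31), but with cells chosen by Arg1 alone its log2 ratio was -0.30 instead of 1.04. The matrix and proteolysis list had a median of 0.45 over 16 measured genes, 2 (Timp1 and Ecm1) at least 2-fold higher and 1 (Mmp8) at least 2-fold lower. Basp1 (ratio 2.94), Snx6 (2.79), Cd86 (2.27), which encodes a co-stimulatory receptor ligand, and Errfi1 (2.20; log2 ratio 0.38 instead of 1.09 with Arg1 alone) complete the 15 highest named genes. Some high ratios rested on few cells: 1 cell held 68.8% of the Lpl UMIs of the Spp1/Arg1-high cells, and Retnla was found in 3 of 51.

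The lower side held Lsp1, Cst3 and, further down, MHC class II genes, which present antigen. Lsp1, an actin-binding protein of leukocytes, was found in 11 of 51 Spp1/Arg1-high cells and 86 of 127 others, at 63.9 and 288 CPM (ratio 0.222, 0.134 to 0.348). Cst3, the gene of cystatin C, was at 746 and 2578 CPM (ratio 0.289). Of 7 MHC class II genes, 6 were measured, 0 lay above 0, 4 were at least 2-fold lower and the median was -1.08. These are ratios of summed levels. Per cell the class II sum was close, with medians of 145 CPM in the Spp1/Arg1-high and 171 CPM in the other gated cells. Its ranges were 0 to 52473 and 0 to 119815 CPM. H2-Aa was at 1023 and 2336 CPM (ratio 0.438, 0.388 to 0.493), but in only 6 of 51 and 28 of 127 cells. Mpeg1 (ratio 0.394), Samhd1 (0.391), Man2b1 (0.330) and Pld4 (0.411) were lower as well, and with a threshold of 3 UMIs the log2 ratio of Man2b1 was -0.77 instead of -1.40. Cd209a, a dendritic cell gene, had 0 UMIs in the Spp1/Arg1-high cells and 261 CPM in the other gated cells, all from 11 cells.

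**Figure D3:**
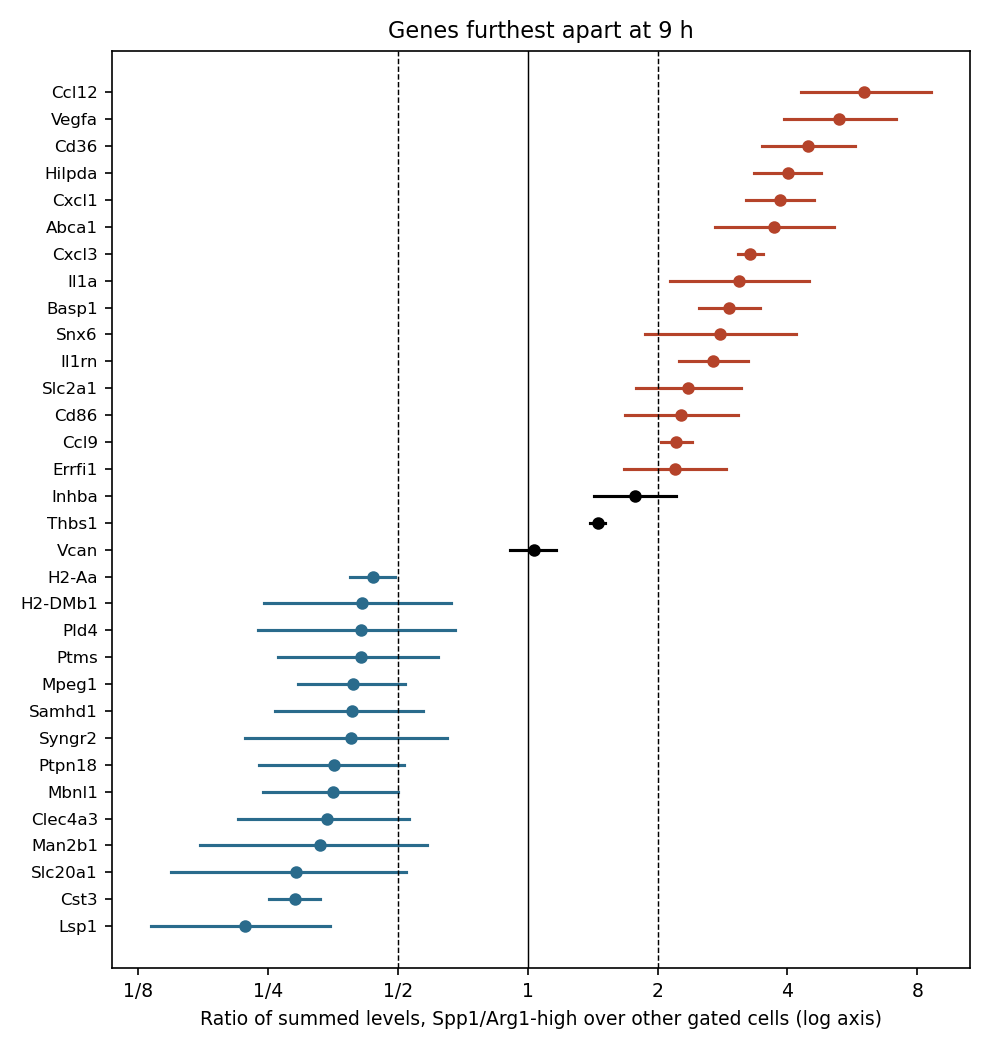
Ratio of summed levels at 9 h, Spp1/Arg1-high over other gated cells, on a log axis, for the 15 highest (red) and 14 of the 15 lowest (blue) named genes and for Thbs1, Inhba and Vcan (black), with exact 95% intervals of counting error as bars. Dashed lines mark 2-fold, and Vcan sits at 1.03.

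The arginine and polyamine list showed no common direction. Of its 15 genes, 6 were measured, 2 lay above 0, 0 were past 2-fold and the median was -0.06. Smox, spermine oxidase, was at 371 and 226 CPM (ratio 1.64) and Odc1, ornithine decarboxylase, at 274 and 226 CPM (ratio 1.21, 0.924 to 1.58). Immediate early genes, induced within minutes of handling or stimulation, had a median of -0.29, with 4 of 17 above 0, and Fos was at 1099 and 1965 CPM (ratio 0.559). The NF-kB feedback list had a median of 0.32 over 8 genes, with Nfkbia at 3575 and 2587 CPM (ratio 1.38).

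**Figure D4:**
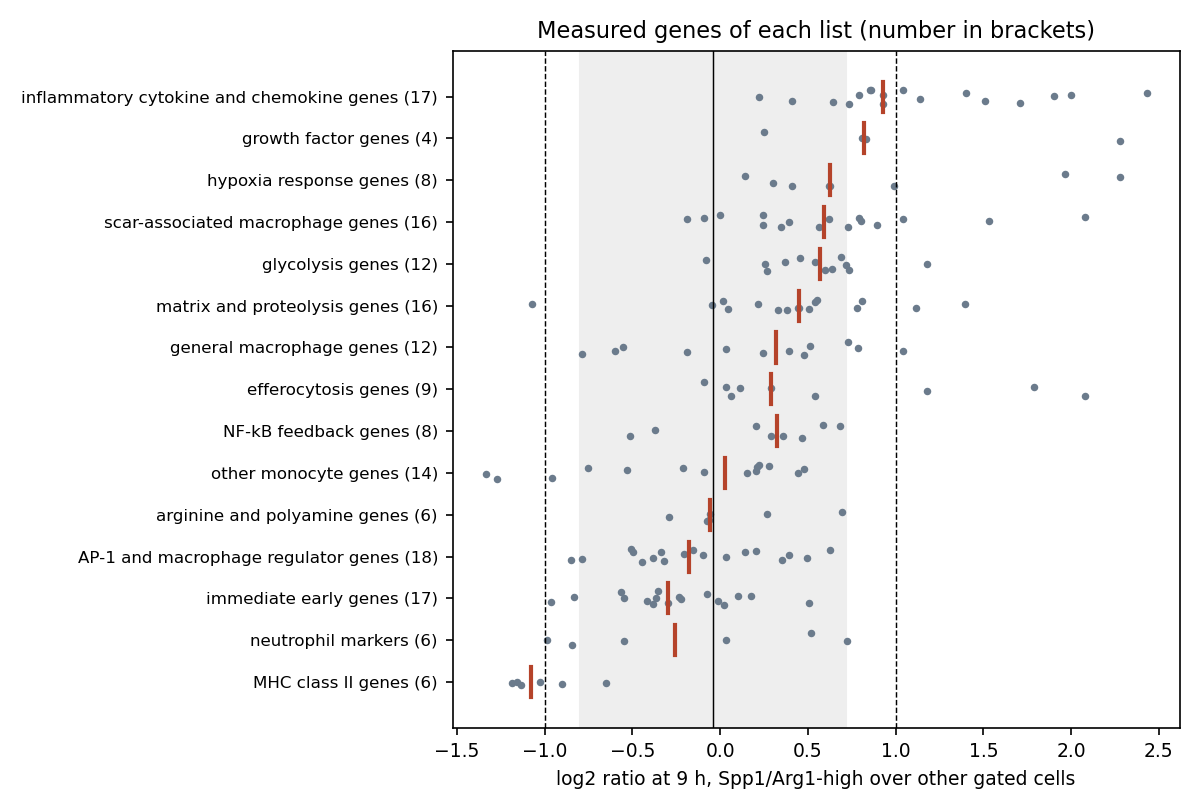
Log2 ratio at 9 h of every measured gene of 15 lists (points, number of genes in brackets), Spp1/Arg1-high over other gated cells, with the list median as a red bar. Grey marks the middle 90% of all measured genes (-0.80 to 0.72), and dashed lines mark 2-fold.

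Markers of neutrophils were not higher as a whole than in the other gated cells. S100a8 was at 795 CPM in the Spp1/Arg1-high cells, 1168 in the other gated cells, 39703 in the Hdc or Il1r2 cells and 445 in the Cdh5 cells. Of 16 neutrophil markers, 6 were measured, 3 lay above 0, 0 were past 2-fold and the median was -0.26, although Mxd1 was at 731 and 439 CPM (ratio 1.66). Without cells over 1% S100a8 and S100a9 that median was 0.48. Against C1q macrophages 3 of the markers were measured, 2 (S100a8 and Mxd1) were at least 2-fold higher and the median was 1.42. Mmp8, a gene outside this list, was at 368 CPM in the Spp1/Arg1-high cells and 8.21 CPM in C1q macrophages (ratio 44.9, 22.9 to 100). Against the other gated cells it went the other way and was at least 2-fold lower. The part of RNA from neutrophils in these ratios was not tested. Scrublet calls were too few to use, so no doublets were removed, and 2 of the 51 cells and 2 of the 127 were among the 573 highest doublet scores at 9 h.

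The cells were not uniform, and the split by Arg1 separated several gene groups. The 14 cells with at least 5 Arg1 UMIs were set beside the 37 with Spp1 only, a split that used Arg1 and Spp1. Cd36 was at 1456 CPM in the Arg1 cells and 182 in the Spp1-only cells (ratio 7.98, 5.60 to 11.6). Of its 167 UMIs in the Arg1 cells, 128 lay in 4 cells that also held at least 10 MHC class II UMIs. Without such cells in both groups Cd36 was at 607 and 207 CPM (ratio 2.93, 1.83 to 4.68), a setting added after seeing the data. With all cells, Ecm1 was at 645 and 112 CPM (ratio 5.74) and Vegfa at 837 and 314 CPM (ratio 2.67, 1.93 to 3.70). Hilpda was at 1674 and 814 CPM (ratio 2.06). Those genes lay higher in the Arg1 cells, while Slc2a1 (366 and 323 CPM), Ccl2 (3408 and 3154 CPM) and Lyz2 (4437 and 4871 CPM) had intervals that included 1.

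Other genes were higher in the Spp1-only cells. Vcan was at 558 CPM in the Arg1 cells and 1525 in the Spp1-only cells, 2.73 times as high in the latter (2.09 to 3.63), on either side of the 1151 CPM of the other gated cells. Chil3 (680 and 2368 CPM), Slpi (1490 and 3664 CPM), Plac8 (166 and 576 CPM) and Ly6c2 (2 and 42 UMIs) were also higher in the Spp1-only cells. Ccr2, Csf1r, Fcgr1 and Fn1, also known from monocytes, had intervals that included 1.

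MHC class II RNA also differed inside the group and rested on few cells. H2-Aa was at 2380 CPM in the Arg1 cells and 295 in the Spp1-only cells, from 4 and 2 cells. Cells with at least 10 MHC class II UMIs, a number chosen after the values had been seen, were 4 of 14 Arg1 cells, 4 of 37 Spp1-only cells and 25 of 127 other gated cells. The summed class II level was 14844 CPM in the Arg1 cells, 2017 in the Spp1-only cells and 13095 in the other gated cells. With cells chosen by Arg1 alone, the class II list median was 0.40 instead of -1.08. Without the cells of at least 10 class II UMIs in both groups, the log2 ratio of H2-Aa was -0.18 instead of -1.18 and that of Cst3 -0.72 instead of -1.78. Retnla had 310 UMIs in 3 of 14 Arg1 cells and 0 UMIs in the 37 others, and 1 cell held 58.1% of them.

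**Figure D5:**
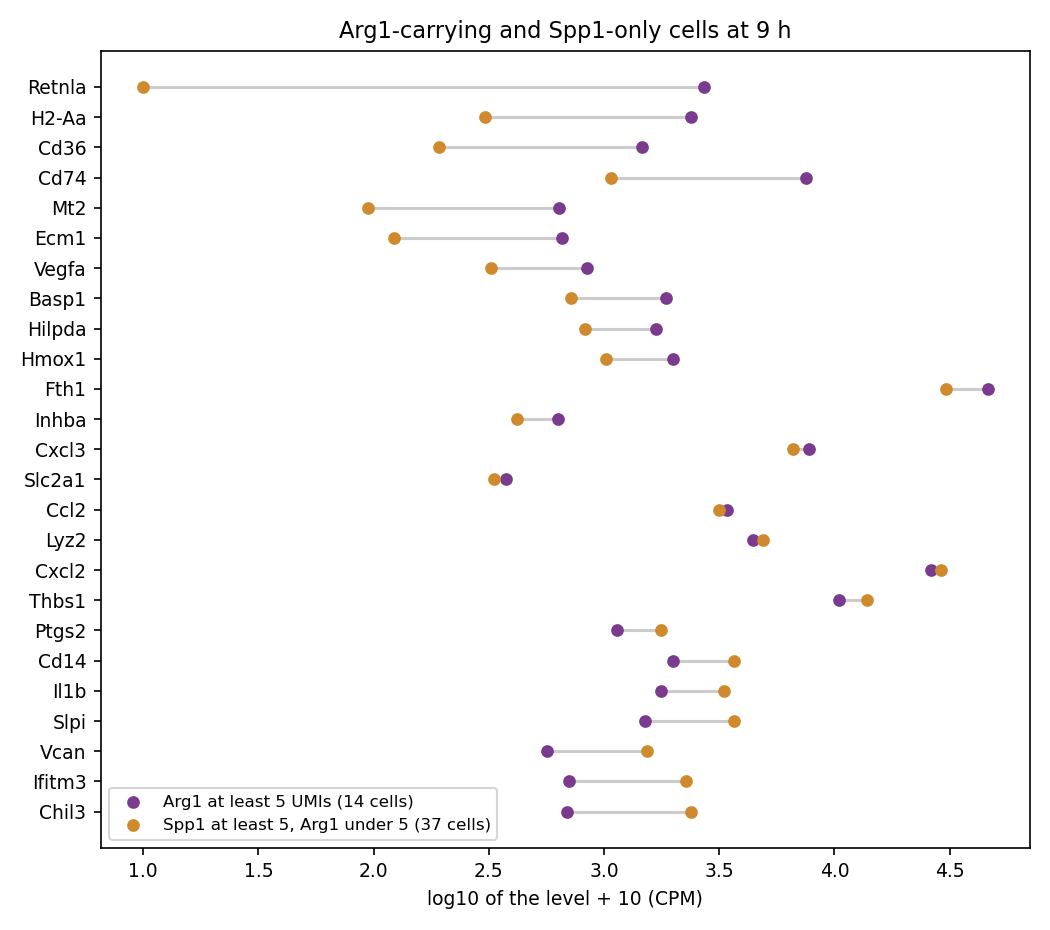
Levels at 9 h, as log10 of CPM + 10, in the 14 Spp1/Arg1-high cells with at least 5 Arg1 UMIs (purple) and the 37 with Spp1 only (orange), for genes picked after their values were seen. Cd36, H2-Aa and Retnla lie to the right in the Arg1 cells, and Chil3, Vcan and Slpi in the Spp1-only cells.

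Against C1q macrophages at 9 h the Spp1/Arg1-high cells differed more widely. Of 1943 measured genes, 119 (6.12%) were at least 2-fold higher and 188 (9.68%) at least 2-fold lower. Slpi was at 2905 and 53.8 CPM (ratio 53.9, 41.5 to 71.4), Ptgs2 at 1538 and 233 CPM (ratio 6.61) and Il1b at 2762 and 588 CPM (ratio 4.70, 4.24 to 5.21). Of the inflammatory list, 21 genes were measured, 10 lay above 0, 4 (Il1b, Ptgs2, Ccl12 and Cxcl3) were at least 2-fold higher, 3 (Cxcl16, Ccl24 and Pf4) at least 2-fold lower and the median was -0.04. Genes of resident macrophages were lower: Cd163, the haemoglobin scavenger receptor, was at 9.13 and 624 CPM, and Selenop, a selenium carrier protein, at 21.3 and 453 CPM. Of 9 measured resident macrophage genes, 8 were at least 2-fold lower and the median was -2.97. The hypoxia response list was higher here as well, with 5 of 9 at least 2-fold higher and a median of 1.15, and the class II list was lower, with 5 of 6 at least 2-fold lower and a median of -1.71.

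The 5 cells at 2 h were set beside those at 9 h for picked genes only. Of these 47 genes, 38 had the same direction at both times, and at 2 h the interval excluded 1 for 28. They were the 15 highest and 15 lowest named genes at 9 h and further genes picked by hand. The share over all measured genes was not counted, so no agreement between the times is read from 38 of 47. Several genes rested on 1 cell. All 12 Vegfa UMIs and all 16 Cxcl1 UMIs lay in 1 of the 5 cells each, as did 33 of 38 Il1rn UMIs and 28 of 34 Basp1 UMIs, so no ratio is given for them. Cxcl3 had 12, 9, 6, 0 and 0 UMIs, at 638 CPM against 65.7 CPM in the 118 others (ratio 9.72, 5.96 to 15.5). Thbs1 had 154, 64, 61, 43 and 25 UMIs, at 8201 and 2400 CPM (ratio 3.42, 3.04 to 3.83). Summed class II levels were lower in the 5 cells, with H2-Aa at 70.9 CPM (3 UMIs) against 3506 CPM (3417 UMIs) in the 118 others. Much of that difference lay in part of the others, whose class II sum ran from 0 to 103469 CPM per cell. The medians per cell were closer, at 357 CPM in the 5 cells (0 to 6083) and 970 CPM in the others. Ccl12, the highest named gene at 9 h, had 0 UMIs in the 5 cells and 1 UMI in the others. With 5 cells no count of genes past a fold is given at 2 h.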

How the data were processed

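The deposited matrices are raw counts of UMIs for each gene and barcode. The authors' tool was Cell Ranger 5.0.0 and the build mm10, according to the submitters' processing notes. The feature and barcode lists deposited by the authors were used as names only. Neither annotation release nor number of animals is given in the sources used here. The 2 libraries held 5729 and 8790 barcodes, and 4900 and 8147 cells were kept. Counts were summed by group and given as CPM, and ratios carry exact conditional binomial, levels exact Poisson and shares exact Clopper-Pearson intervals. Log2 ratios added 10 CPM, and genes with at least 100 UMIs over both groups counted as measured.

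Named genes were the 15 highest and 15 lowest log2 ratios at 9 h among genes with at least 100 CPM and a UMI in at least 20% of cells of the higher group. No cell was to hold over 20% of that group's UMIs. Genes the cell choice used and mitochondrial, ribosomal, haemoglobin and unnamed genes were left out. Marker, gate and list genes were read beside them; some genes are left out of the text. Members and lists were chosen with earlier results of these data known. The Hdc or Il1r2, Pdgfra and Cdh5 groups and the bands of UMIs were defined after the files were seen. Tools were Python 3.11.15, numpy 2.4.6, scipy 1.17.1, pandas 2.3.3 and Scanpy 1.11.5. On simulated counts of 1451 genes at the 9 h depth, intervals covered the simulated ratio in 98% of genes with a 0.25-fold difference, 96% with 0.5, 98% with 2 and 90% with 4. These counts were drawn independently, as the intervals assume, so the coverage says nothing about UMIs that sit in a handful of cells. Only 24% of genes simulated at 2-fold and 64% at 0.5-fold passed the 2-fold line, so counts past it miss genes near it. Alternatives varied the member threshold, the number of gate genes, the gene that chose the cells, depth, pseudocount, minimum UMIs and scaling (edgeR's TMM). No test across samples was made, with 1 library per time.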

Additional observations from a re-analysis of the deposited data

Results flagged for a closer look

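Cells outside the monocyte gate also reached 5 Spp1 and Arg1 UMIs: 185 kept cells at 2 h and 1210 at 9 h, which no comparison above used. At 9 h, 1107 of the 1210 had more than 2 Hdc and Il1r2 UMIs, 1104 had fewer than 3 of the 8 gate genes and 48 had more than 2 C1q UMIs. A cell could fail several conditions. Those that failed 1 condition alone were 57 for Hdc and Il1r2, 54 for the gate genes, 23 for C1q and 7 for Flt3, Pdgfra or Cdh5. Hdc or Il1r2 cells held 79.2% of the Spp1 UMIs at 2 h and 80.9% at 9 h.

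Mpeg1 and Lyz2 pointed in opposite directions at the 2 times. The ratio of the Spp1/Arg1-high to the other gated cells was 1.68 for Mpeg1 (1.22 to 2.26) and 1.53 for Lyz2 (1.42 to 1.64) at 2 h, against 0.394 and 0.593 at 9 h. The difference between the times was not tested, and 2 h rests on 5 cells.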

How the results depend on the processing

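No paired analysis was possible because each time had 1 library. Without cells over 1% S100a8 and S100a9, Spp1/Arg1-high cells were 1.36% of the cells then left at 9 h. That share rose because fewer cells were left to divide by, as 50 of the 51 Spp1/Arg1-high cells remained. Chosen by Arg1 alone they were 0% of kept and 0% of gated cells at 2 h, and 0.172% and 7.87% at 9 h. Against 27 higher and 34 lower genes, Arg1 alone gave 46 and 101 (14 cells). At least 20 UMIs per gene gave 85 and 229. At least 2 gate genes gave 56 lower, a pseudocount of 50 CPM 14 lower, and leaving out cells with 10 or more class II UMIs, added after seeing the data, 16 higher. Arg1 alone turned the class II list median (0.40) and the log2 ratios of H2-Aa (0.36), H2-Ab1 (0.40) and Ctsl (-0.30), and that of Il1b from 0.41 to -0.42. The alternative activation median of 0.51 became -0.102 with a rate of 10 per 10000 UMIs and -0.14 with Spp1 alone, and the NF-kB feedback median of 0.32 became -0.014 with at least 2 gate genes. The cause was not tested. Of the other counts of genes, 29 stayed within 1.5 times. The inflammatory list median stayed between 0.75 and 1.11 and the hypoxia median between 0.51 and 0.72 over 18 alternatives. With 51 cells, genes under 100 UMIs were not measured.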
